A study of Mus musculus with 6 samples.

Results

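The genes described here are 10 transcripts of macrophages and of MHC class II antigen presentation, measured in epithelial tumor cells that had been sorted to exclude leukocytes. They are 6 macrophage genes (Lyz2, C1qa, C1qb, C1qc, Csf1r and Cd68) and 4 class II genes (Cd74, H2-Aa, H2-Ab1 and H2-Eb1), out of 21717 genes with a count in any library. They were chosen because immune markers stood out in 1 library of these same data, so their height in that library is a description and was not tested. The 6 libraries came from 6 breast tumors of MMTV-PyMT mice, an FVB/N strain whose transgene, FVB/N-Tg(MMTV-PyVT)634Mul/J, uses the mouse mammary tumor virus promoter to drive the polyoma middle T antigen in mammary epithelium. All mice carried the transgene, started treatment at 7 weeks of age and received B20-4.1.1, an antibody that blocks mouse VEGF-A, at 5 mg/kg into the peritoneum, 2 times per week for 6 weeks. The labels give 1 group, so values are shown per tumor, numbered 1 to 6, and neither untreated tumors nor the hypoxia classes of the study were compared here. Whether the libraries are of separate mice is not stated in the labels, and the spread between them may be in part technical.

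Macrophages take up and digest particles, secrete lysozyme and the first component of the classical complement pathway, C1q, and depend on signaling through the CSF1 receptor. Together with dendritic cells and B cells they are the professional carriers of MHC class II, a surface dimer of an alpha and a beta chain that shows peptides to CD4+ T cells. The dimer is assembled in the endoplasmic reticulum on the invariant chain, encoded by Cd74, which the protease cathepsin S later cuts away. Transcription of the class II genes is switched on by the coactivator CIITA, which joins factors already bound at short conserved boxes upstream of each gene. Epithelial cells can carry class II as well, mostly after exposure to interferon gamma. In mammary tumors, macrophages are among the most abundant leukocytes.

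Conserved boxes of this kind can be seen in the sequence ahead of class II genes. RefSeq promoter sequences (GRCm38.p6) were matched by symbol to 6 of the 10 members. Shown are the 150 bases before the start of H2-Aa, H2-Eb1 and, for comparison, H2-DMb1, which encodes a chain of the class II chaperone H2-DM. Capitals mark a pair of motifs that were searched on both strands and chosen after the sequences had been read. The first is GATTGG, the core of the Y box, which shows as CCAATC where it lies on the other strand. The second is AACTGATG, a stretch within the X box of some class II genes. The H2-Aa stretch lies at chr17:34287824-34287973 on the minus strand, that of H2-Eb1 at chr17:34305717-34305866 on the plus strand, and that of H2-DMb1 at chr17:34153041-34153190 on the plus strand.
H2-Aa: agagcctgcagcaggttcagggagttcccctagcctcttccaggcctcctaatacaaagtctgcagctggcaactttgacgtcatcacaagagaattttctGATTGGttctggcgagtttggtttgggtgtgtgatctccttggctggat
H2-Eb1: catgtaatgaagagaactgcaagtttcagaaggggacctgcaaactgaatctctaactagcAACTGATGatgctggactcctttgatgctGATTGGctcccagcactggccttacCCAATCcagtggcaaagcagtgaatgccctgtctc
H2-DMb1: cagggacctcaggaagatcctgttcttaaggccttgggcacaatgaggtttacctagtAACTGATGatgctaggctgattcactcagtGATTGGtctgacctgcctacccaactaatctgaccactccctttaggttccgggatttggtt
GATTGG begins at base -49 of H2-Aa, -60 of H2-Eb1 and -62 of H2-DMb1, counted from the RefSeq start, and is found in 16.1% of all 32851 promoter sequences, each of 250 bases before and 50 after a start. H2-Eb1 holds it a further time on the opposite strand. AACTGATG begins at base -89 of H2-Eb1 and -92 of H2-DMb1, is not in the H2-Aa stretch, and is found in 255 promoters (0.776%). Among the macrophage members with a sequence, Cd68 holds GATTGG on the opposite strand, and C1qc holds GAGGAAGT, a core bound by factors of the PU.1 family that is found in 3.2% of promoters, also on the opposite strand. The motifs do not overlap each other. A match describes letters and not binding.

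Counts on genes lay between 2509482 and 5893246 per library, and 3 counts, taken as the floor of detection, correspond to 0.509 to 1.20 CPM (counts per 1000000 counts on genes). The members were rare in every library. Together they held 374, 54, 1355, 107, 337 and 309 counts in tumors 1 to 6, which is at most 0.0329% of a library. Tumor 3 held the most and tumor 2, the shallowest library, the fewest. All intervals given are exact 95% intervals, and they cover counting error alone. In bulk RNA, fewer cells of a type and less RNA per cell cannot be told apart. Epcam, the surface marker of the sort, lay between 611 and 972 CPM, and the 7 luminal epithelial genes summed to between 3957 and 4874 CPM. Per the labels the cells were CD45- EPCAM+, and the methods of the study add that cells with CD31 or PDGFRα were gated out. Pecam1, the gene of CD31, gave 3 to 12 counts and Pdgfra 5 to 16 counts per library. The sample names of tumors 2 and 3 begin with QSD and those of the other 4 tumors with QAF, and what the letters mean is not stated. For 7 members the tumors of the QSD pair were the highest and the lowest of all 6. The share of all genes with this pattern was not computed, so nothing is read from the 7.

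**Figure D1:**
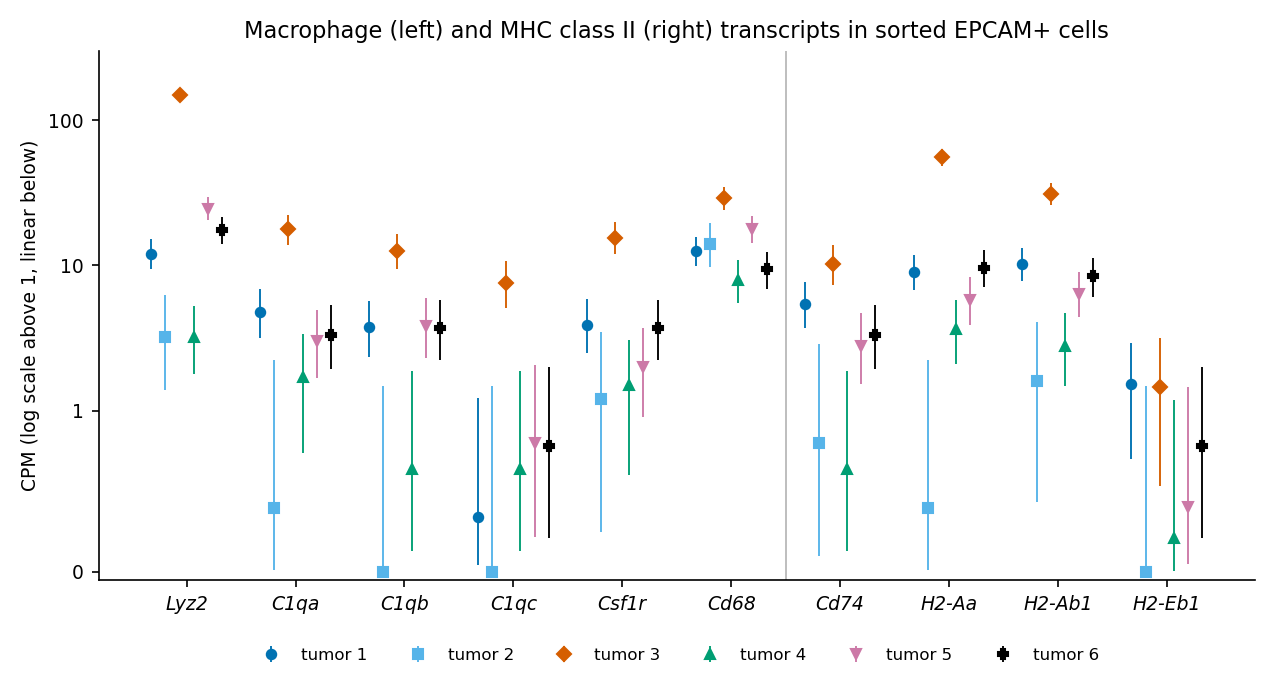
CPM of each member (y axis, logarithmic above 1 and linear below) in each of the 6 tumors (symbols), with exact 95% Poisson intervals of the count. Tumor 3 (diamonds) is the highest for 9 of the 10 genes, by a wide margin for Lyz2 and H2-Aa, while H2-Eb1 is highest in tumor 1, and the lowest value is in tumor 2 or 4 for each gene.

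Tumor 3 had the highest CPM for 9 of the 10 members, and tumor 1 for H2-Eb1. Across all genes, 15.8% of the 10416 genes that passed a filter on low counts were highest in tumor 3, and 16.8% of the 15663 genes that exceeded 3 counts in at least 1 library. Tumor 1 was the highest for 37.1% of the genes that passed the filter, more than any other tumor. For 7 of the 10 members the gap between tumor 3 and the next tumor, as a share of the range, was over Dixon's 95% critical value for 6 values. This was so for 0.701% of the genes that passed the filter and for 1.66% of the larger set. Tumor 3 was above 2 times the next tumor for 7 members, and for 0.173% of the genes that passed the filter. Since the members were chosen on these values, the shares are given for orientation, and nothing is read from them. The filter kept 2 of the 10 members, Lyz2 and Cd68. The other 8 had too few counts in 1 or more tumors. The lowest tumor was tumor 2 for 8 members and tumor 4 for Cd68 and Cd74. How many of all genes were lowest in tumor 2, the shallowest library, was not counted.

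Lyz2 (ENSMUSG00000069516, chromosome 10, 117277331 to 117282321, minus strand, GRCm38) encodes lysozyme M, an enzyme that cuts bacterial cell walls and is secreted by macrophages and neutrophils. In tumors 1 to 6 its level was 12.0, 3.19, 148, 3.19, 24.6 and 17.4 CPM, from 71, 8, 610, 15, 123 and 89 counts. Tumor 3 stood alone, tumors 1, 5 and 6 formed a middle range, and tumors 2 and 4 were alike at the bottom. The level in tumor 3 was 6.02 times that in tumor 5 (interval 4.95 to 7.37). Lyz2 had a biological coefficient of variation (edgeR's estimate of the spread between tumors beyond counting) of 0.94, against a trend of 0.343 at its abundance, a ratio higher than in 99.96% of the 10416 genes. Without tumor 3 the value was 0.609, against a trend of 0.389. Lyz2 was chosen with its height in tumor 3 known, so its rank among all genes is a description only. Lyz1, the neighboring lysozyme gene, shares 21.9% of the 50-base stretches that end the longest Lyz2 transcript (its final 300 bases), and reads from them are uncertain. Lyz1 itself held at most 3 counts in a tumor.

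The C1q genes encode the A, B and C chains, which assemble into the recognition unit of the classical complement pathway, and lie side by side within 18675 bases of chromosome 4 (136880129 to 136898803, all on the minus strand). C1qa (ENSMUSG00000036887) had 28, 1, 73, 8, 15 and 17 counts, or 4.75, 0.398, 17.7, 1.70, 3.00 and 3.32 CPM in tumors 1 to 6. C1qb (ENSMUSG00000036905) had 22, 0, 52, 3, 19 and 19 counts, or 3.73, 0, 12.6, 0.638, 3.79 and 3.71 CPM. C1qc (ENSMUSG00000036896) had 2, 0, 31, 3, 4 and 4 counts, or 0.339, 0, 7.52, 0.638, 0.799 and 0.781 CPM. All 3 chains were highest in tumor 3 and at or near the floor in tumor 2, where the 3 genes gave 1 count in all. The level in tumor 3 was 3.73 times that of the next tumor for C1qa (2.38 to 5.98), 3.32 times for C1qb (1.93 to 5.95) and 9.41 times for C1qc (3.33 to 36.7).

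The makeup of the C1q counts overlapped between tumors for C1qa and differed between tumors 3 and 1 for C1qc. C1qa made up 46.8% of the C1q counts in tumor 3 (38.8 to 54.9%), 53.8% in tumor 1 (39.5 to 67.8%), 39.5% in tumor 5 (24.0 to 56.6%) and 42.5% in tumor 6 (27.0 to 59.1%). C1qc made up 19.9% in tumor 3 (13.9 to 27.0%) and 3.85% in tumor 1 (0.469 to 13.2%), with intervals that do not overlap. It made up 10.5% in tumor 5 and 10.0% in tumor 6, both with intervals that overlap that of tumor 3.

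Csf1r and Cd68 differed in how far they followed Lyz2. Csf1r (ENSMUSG00000024621, chromosome 18, 61100598 to 61132149, plus strand) encodes the receptor for CSF1 and interleukin-34, on which most macrophages depend. Its level in tumors 1 to 6 was 3.90, 1.20, 15.5, 1.49, 2.00 and 3.71 CPM, from 23, 3, 64, 7, 10 and 19 counts. Tumor 3 was apart from the other 5, which lay together, at 3.98 times the next tumor (2.44 to 6.71). The end of Csf1r overlaps the end of Hmgxb3 on the other strand. The kit keeps strand, but whether the counting used it is not given in the sources used here, so reads from the overlap are uncertain.

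Cd68 (ENSMUSG00000018774, chromosome 11, 69664213 to 69666153, minus strand) encodes a lysosomal glycoprotein that is abundant in macrophages but is made at low levels in other cells too. It had 74, 35, 120, 37, 89 and 48 counts, or 12.6, 13.9, 29.1, 7.87, 17.8 and 9.37 CPM. Its coefficient of variation was 0.397 against a trend of 0.364. In a fit without the filter, which takes in all 10 members, Cd68 had the smallest coefficient of them and Lyz2 the largest (0.979). Tumor 3 was 1.64 times tumor 5 (1.23 to 2.18), a gap of 0.534 of the range, under the critical value. In tumor 2, where Lyz2 and the C1q genes were lowest, Cd68 was at 13.9 CPM and made up 74.5% of the macrophage member counts, against 12.6% in tumor 3.

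The class II genes of the H2 complex lie within 58986 bases of chromosome 17 (34257689 to 34316674). H2-Aa (ENSMUSG00000036594), which encodes the alpha chain of the I-A dimer, had 53, 1, 229, 17, 29 and 49 counts, or 8.99, 0.398, 55.5, 3.62, 5.79 and 9.57 CPM in tumors 1 to 6. Tumor 3 was 5.80 times the next tumor (4.25 to 8.07). H2-Ab1 (ENSMUSG00000073421), which encodes the beta chain of the same dimer, had 60, 4, 128, 13, 32 and 43 counts, or 10.2, 1.59, 31.0, 2.77, 6.39 and 8.39 CPM. Here tumor 3 was 3.05 times the next tumor (2.23 to 4.22). Both chains of I-A had tumor 3 first, tumors 1 and 6 within each other's intervals, and tumor 2 last.

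H2-Eb1 and Cd74 did not stand apart in the same way. H2-Eb1 (ENSMUSG00000060586), which encodes the beta chain of the I-E dimer, had 9, 0, 6, 1, 2 and 4 counts, or 1.53, 0, 1.45, 0.213, 0.399 and 0.781 CPM, and its level in tumor 1 was 1.05 times that in tumor 3 (0.334 to 3.58). The level was at or under the floor in tumors 2, 4 and 5, and no difference between the other 3 was detectable at this depth. An antisense gene, Gm20513, overlaps H2-Eb1 and held 0 counts, with the same uncertainty of strand as for Csf1r. Cd74 (ENSMUSG00000024610, chromosome 18, 60803848 to 60812652, plus strand) encodes the invariant chain. It had 32, 2, 42, 3, 14 and 17 counts, or 5.43, 0.797, 10.2, 0.638, 2.80 and 3.32 CPM. Tumor 3 was 1.88 times tumor 1 (1.16 to 3.07), a gap of 0.498 of the range.

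The makeup of the class II counts differed between tumors. H2-Aa made up 56.5% of them in tumor 3 (51.6 to 61.4%) and 34.4% in tumor 1 (27.0 to 42.5%). Cd74 made up 10.4% in tumor 3 (7.58 to 13.8%) and 20.8% in tumor 1 (14.7 to 28.0%). H2-Ab1 varied less, from 31.6% in tumor 3 to 41.6% in tumor 5 among the tumors other than tumor 2, which had 7 class II counts in all. These are shares of reads from a 3′ library, and a change in a share shows unequal change between genes, not which gene moved. The reads were aligned to the C57BL/6J genome whereas the mice were FVB/N, and the H2 genes differ much between strains. The part of this in the counts of H2-Aa, H2-Ab1 and H2-Eb1 was not tested.

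Summed over the macrophage members, the levels of the 6 tumors in order were 37.3, 18.7, 230.4, 15.5, 51.9 and 38.3 CPM. The sum in tumor 3 was 6.17 times the median of the others, and 8.12 times without Cd68. Tumor 5 was next, above tumors 6 and 1, whose intervals overlap, and tumors 2 and 4 could not be told apart at this depth. Summed over the class II members, the level was 26.1, 2.79, 98.2, 7.23, 15.4 and 22.1 CPM in tumors 1 to 6, and tumor 3 was at 6.39 times the median of the others. After tumor 3 the order was not the same for the sums. Tumor 5 came next for the macrophage genes but behind tumors 1 and 6 for class II, where tumor 1 came next. For class II the interval of tumor 6 (18.2 to 26.5 CPM) overlaps those of tumor 5 (12.1 to 19.2 CPM) and tumor 1 (22.2 to 30.6 CPM). Those of tumors 5 and 1 do not overlap.

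The class II share of the member counts shows this difference in order directly. Tumors 1 and 6 had the highest shares, 41.2% (36.1 to 46.4%) and 36.6% (31.2 to 42.2%). Tumors 4 and 3 lay in the middle at 31.8% (23.1 to 41.5%) and 29.9% (27.5 to 32.4%). Tumors 5 and 2 were lowest at 22.8% (18.5 to 27.7%) and 13.0% (5.37 to 24.9%). The interval of tumor 1 overlaps neither that of tumor 3 nor that of tumor 5. The lower share of tumor 3 rests on Lyz2, which was chosen with its height there known. Lyz2 made up 64.2% of the macrophage member counts in tumor 3 and 32.3% in tumor 1. Without Lyz2 the class II share of tumor 3 was not below that of tumor 1, so nothing is read from this contrast. Leaving out Cd68, a choice made after the data were seen, the share was 36.8% in tumor 2 (16.3 to 61.6%), and the low value of that tumor was no longer apart. Tumor 1 (51.3%), tumor 4 (48.6%, 36.4 to 60.8%) and tumor 6 (43.3%) were then above tumors 3 (32.8%) and 5 (31.0%). Their intervals do not overlap that of tumor 3. The interval of tumor 5 (25.3 to 37.2%) overlaps those of tumors 4 and 6 but not that of tumor 1.

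**Figure D2:**
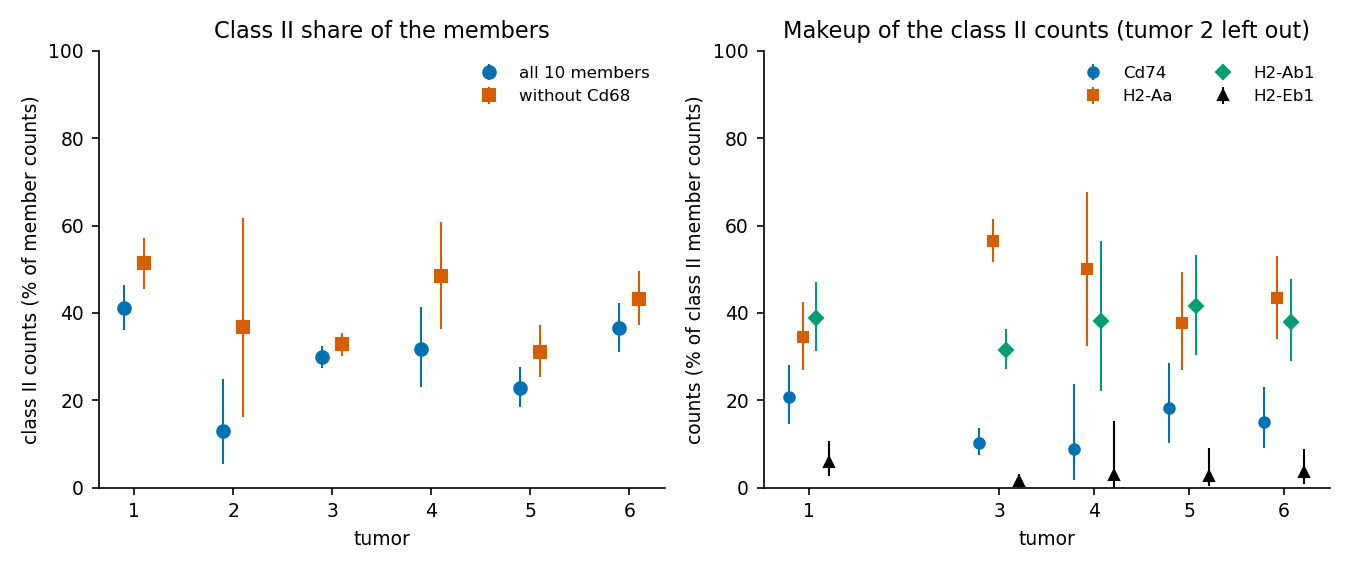
Left, class II counts as a percent of the counts of all 10 members (circles) or of the 9 members other than Cd68 (squares) in each tumor. Right, each class II gene as a percent of the class II counts, without tumor 2, which had 7 such counts. Bars are exact 95% binomial intervals. The class II share is higher in tumor 1 than in tumors 3 and 5, but without Lyz2 (not drawn) tumor 3 is not below tumor 1. H2-Aa takes a larger share in tumor 3 (56.5%) than in tumor 1 (34.4%).

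Most other genes of macrophages had the same library on top. Of 24 further macrophage genes, 20 exceeded 3 counts in at least 1 library, and tumor 3 held the highest level of 16 of these, against the 16.8% given above for all such genes. Adgre1 and Spi1 passed this limit only through tumor 3. The members were chosen because immune markers stood out there, and these genes are such markers, so nothing is read from the 16. The sum of the list was highest in tumor 6, not in tumor 3. Fcer1g and Tyrobp, which encode signaling adaptors of myeloid receptors, were at 14.8 and 13.1 CPM in tumor 3 and at most at 3.05 and 1.56 CPM in the others. Cx3cr1, the receptor for fractalkine, was at 34.2 CPM against 3.19 to 9.57 CPM. Adgre1, the gene of F4/80, reached 13 counts in tumor 3 (3.15 CPM) and at most 3 counts in each other tumor. Msr1, a scavenger receptor, was at 10.9 CPM against at most 2.20 CPM. Genes of the list that were not highest in tumor 3 included Cd14, Arg1 and Cd163. Cd14 (31.2 to 146 CPM, highest in tumor 5) and Arg1 (39.1 to 162 CPM, highest in tumor 4) were well above the floor in all 6 libraries. Cd163 reached at most 14 counts.

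Of 12 further genes of the class II pathway, 9 exceeded 3 counts in at least 1 library. Tumor 3 held the highest level of 6 of them, and for Ctss alone was the gap from tumor 3 down to the next tumor over the critical value. Among all genes over 3 counts in a library the shares were 16.8% and 1.66%. For H2-DMb1, Ifi30, Rfx5, Rfxank and Rfxap, tumor 3 was at 1.00 to 1.24 times the next tumor, with intervals that include 1. Ctss, the gene of cathepsin S, was at 14.8, 3.59, 125, 8.93, 19.97 and 15.4 CPM in tumors 1 to 6, the same order of tumors as for Lyz2. H2-DMb1 lay between 23.1 and 43.4 CPM and Ifi30, a lysosomal thiol reductase, between 62.6 and 147 CPM. H2-DMa was highest in tumor 1 (10.0 CPM) and lay between 2.39 and 4.36 CPM in the others, and its gap (0.741 of the range) was over the critical value too. This was common in that library: 1251 of the 10416 genes that passed the filter had such a gap with tumor 1 high. Rfx5, Rfxank and Rfxap, the subunits of the factor that binds the X box, lay between 18.4 and 38.6, 3.62 and 8.49, and 14.3 and 24.2 CPM. Ciita was close to the floor in every tumor, at 1 to 4 counts, with tumor 6 lowest by a gap of 0.671 that rests on 1 count. H2-Eb2 held none (0 counts). With so few counts, a difference in Ciita was not detectable at this depth.

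Genes that interferon gamma raises in many cells were a further list. Of its 11 genes that exceeded 3 counts in at least 1 library, tumor 3 held the highest level of 4. The share among all such genes was 16.8%. For none of the 11 was the gap from tumor 3 down to the next tumor over the critical value. Among the 4 was Irf8, a factor of myeloid cells, with 11 counts in tumor 3 (2.67 CPM). It was at 2.51 times the next tumor, with an interval (0.803 to 9.21) that includes 1. Cxcl10, another of the 4, passed this limit only through tumor 3. The list summed to between 882 and 1151 CPM, with tumor 3 at 955 CPM. B2m lay at 479 CPM in tumor 3 within a range of 387 to 632 CPM, and Irf1 at 272 CPM within 164 to 328 CPM. Tap1 and Psmb9, which lie between the H2-DM genes and H2-Ab1 on chromosome 17, were highest in tumor 1 (74.3 CPM) and in tumor 5 (13.6 CPM). Of 5 genes of classical complement other than C1q over that limit, Serping1 alone had its highest level in tumor 3, with 11 counts against 10 in tumors 4 and 5. C3 was at 67.7 CPM in tumor 3 and at 77.7 to 165 CPM in the others.

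**Figure D3:**
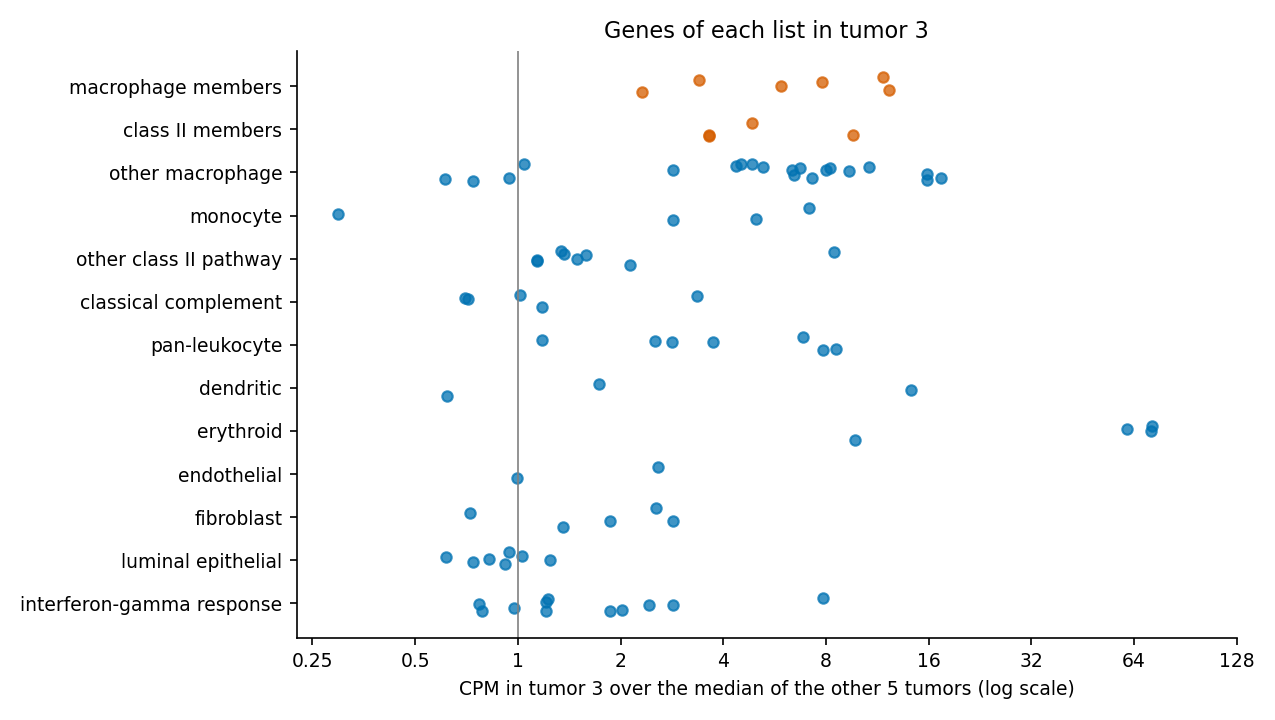
Ratio of the CPM in tumor 3 to the median of the other 5 tumors (x axis, logarithmic) for each gene that exceeded 3 counts in at least 1 library, by gene list (rows, members in orange). The members and most other macrophage genes lie to the right of 1, luminal epithelial genes lie around 1, and hemoglobin genes lie farthest right. Rac2, whose median in the others is 0, and H2-Oa, which is at 0 in tumor 3, are not drawn, nor are the 4 lists of B cells, T and NK cells, neutrophils and mast cells.

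Most markers of lymphocytes and dendritic cells were at or near 0, with exceptions. Of the 7 B cell genes, Cd79a and Cd79b had 0 counts in all tumors, and Jchain alone exceeded 3 counts in a library (at most 5). Cd3e had 4 counts in tumor 3 and 0 in the others, and Cd8a had 0 in all, while Trbc2, a constant part of the T cell receptor, had 3 counts in tumor 3 and up to 8 in another tumor. Flt3, Xcr1, Clec9a and Cd209a, which mark dendritic cells, had 0 counts throughout, while Itgax, shared by dendritic cells and macrophages, had 25 counts in tumor 3 and at most 8 in another tumor. Zbtb46, a factor of dendritic cells that other cells also make, had 53, 10, 44, 29, 29 and 32 counts (3.98 to 10.7 CPM), highest in tumor 3 and next in tumor 1. Among neutrophil genes, Mpo, Elane and Csf3r had 0 counts. S100a8, which epithelial cells can also make, was at 74.7 CPM in tumor 3, near the low end of its range of 73.8 to 230.4 CPM. S100a9 went the other way and was highest in tumor 3, with 14 counts (3.39 CPM), ahead of tumor 4 (2.34 CPM). Cxcr2 had 2 counts in tumor 3 and 0 in the others. Hemoglobin genes were, like the members, highest in tumor 3, where the 5 erythroid genes summed to 864 CPM, against 5.66 to 69.4 CPM in the others. Their order in the other tumors was not that of the members: tumor 2 (52.6 CPM) was above tumors 5 (13.2 CPM) and 6 (5.66 CPM). Of the 5, 4 exceeded 3 counts in a library, and all 4 were highest in tumor 3, against 16.8% of all such genes. The labels state that red cells were lysed before the sort. The part of the erythroid genes in the result was not tested.

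Ptprc, the gene of CD45, the protein used to exclude leukocytes, did not stand apart with the macrophage genes. Of the 8 genes of leukocytes in general, Ptprc among them, 7 were highest in tumor 3, and 4 had a gap below tumor 3 over the critical value. For all genes over 3 counts in a library the shares were 16.8% and 1.66%. Rac2 exceeded 3 counts in tumor 3 alone. The remaining gene, Lcp1, was the most abundant and was highest in tumor 5 (173 CPM). The sum of the list was also highest in tumor 5 (182 CPM), with tumor 3 at 146 CPM. Ptprc had 18, 2, 14, 5, 6 and 8 counts, or 3.05, 0.797, 3.39, 1.06, 1.20 and 1.56 CPM in tumors 1 to 6, so that tumors 3 and 1 were nearly level. Set against the counts of Lyz2, the C1q genes and Csf1r together, Ptprc gave 1.69 counts per 100 in tumor 3 (0.918 to 2.85) and 12.3 per 100 in tumor 1 (7.11 to 20.2). The genes of this denominator were chosen for their height in tumor 3, and Cd68, which stood out less, was left out. A gene less raised there than they are gives a low ratio in tumor 3 by this choice, so the low ratio of Ptprc is a description only. Tumors 4 (13.9 per 100, 4.25 to 35.5), 5 (3.51, 1.27 to 7.80) and 6 (5.41, 2.29 to 10.9) lay between or above, and the intervals of tumors 5 and 6 overlap that of tumor 3. Other genes of the lineage varied in how their ratio compared between these tumors. Fcer1g gave 7.35 counts per 100 in tumor 3 (5.57 to 9.54) and 12.3 in tumor 1 (7.11 to 20.2), as many as Ptprc there, with intervals that overlap. Tyrobp gave 6.51 counts per 100 in tumor 3 (4.85 to 8.57) and 6.16 in tumor 1 (2.76 to 12.0), and Laptm5, a lysosomal protein of leukocytes, gave 6.63 (4.95 to 8.71) and 6.85 (3.22 to 13.0). Ctss gave 61.9 counts per 100 in tumor 3 (55.4 to 69.2) and 59.6, 58.5 and 53.4 in tumors 1, 5 and 6, all with overlapping intervals, and 117 in tumor 4 (73.0 to 187), whose interval lies above that of tumor 3.

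**Figure D4:**
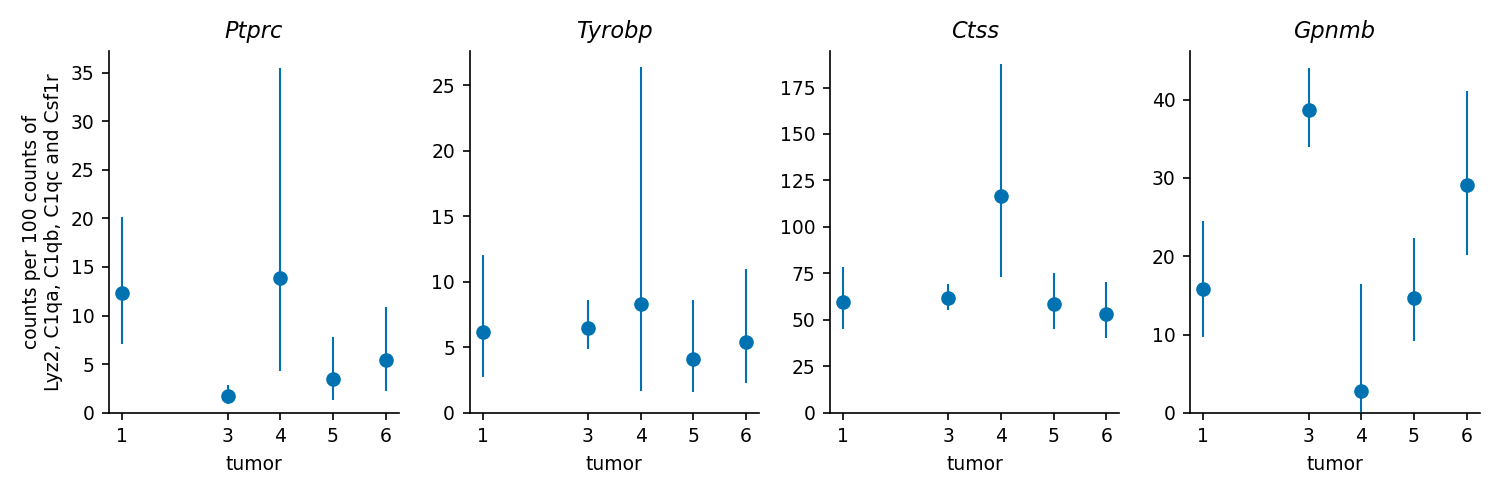
Counts of Ptprc, Tyrobp, Ctss and Gpnmb per 100 counts of Lyz2, C1qa, C1qb, C1qc and Csf1r (y axes, each from 0) in each tumor but tumor 2, which had 12 such counts. Bars are exact 95% intervals of counting error. The genes of the denominator were chosen for their height in tumor 3, which lowers the ratio there of genes less raised in it. Tyrobp and Ctss keep a similar ratio in tumors 1, 3, 5 and 6, Ptprc is lowest in tumor 3, and Gpnmb is highest there, with intervals that overlap those of tumors 5 and 6 for Ptprc and of tumor 6 for Gpnmb.

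Among the 10439 genes averaging 5 CPM or more, those whose log2 level followed the summed macrophage members most closely over the 6 tumors were Ccndbp1, Hspg2, Btbd2, Gpnmb, Coq3, Snhg3, Isy1, Icmt, Ctss and Bfar, with Pearson's r between 0.957 and 0.991. For the summed class II members they were Rtp4, Apoe, Osgin2, Rab5if, Itgb5, Dnajc19, Ctss, Ddb1, Ngrn and Srp14 (r 0.945 to 0.972). Ctss was on both lists. These are likenesses over 6 libraries, and many come with small differences. Ccndbp1, for instance, lay between 25.5 and 45.6 CPM. Gpnmb and Apoe differed more. Gpnmb, a glycoprotein of lysosomes and melanosomes, was at 77.8 CPM in tumor 3 and at 0.213 to 8.39 CPM in the others. Per 100 macrophage counts it gave 38.7 in tumor 3 (33.9 to 44.0) and 15.8 in tumor 1 (9.68 to 24.6). Apoe, a lipid carrier made by macrophages and by other cells, was at 358 CPM in tumor 3 and at 40.2 to 105 CPM in the others, and per 100 macrophage counts it gave 178 in tumor 3 (163 to 194) and 393 in tumor 1 (327 to 475). The limit given above for this denominator holds for Apoe too.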

How the data were processed

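RNA of sorted EPCAM+ cells of 6 B20-4.1.1-treated tumors was sequenced by the authors from 3′ libraries (QuantSeq FWD). After trimming with bbduk, alignment used STAR 2.5 and GRCm38/mm10, and the deposited files hold whole read counts by gene from HTSeq, not normalized. Per the labels the kit keeps strand and adds molecular identifiers. Whether counting used either, and the annotation release, are not given in the sources used here, so intervals cover counting error only. Lines that name no gene (16.1 to 41.4% of reads) were left out. Multiply aligned reads are listed as 0 in each file, and how they were handled cannot be seen.

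Symbols and coordinates came from GENCODE M21 (GRCm38), which paired 47224 of 47643 identifiers. CPM was computed over all genes. Counts have exact Poisson intervals, shares exact binomial (Clopper-Pearson) intervals, and ratios of 2 libraries or genes intervals from the exact binomial, all at 95%. Low genes were filtered with edgeR's filterByExpr (minimum count 10, minimum total 15, 1 group), which kept 10416 genes. Dispersions came from an intercept-only edgeR fit with robust shrinkage. No test between tumors was made, because the labels give 1 group. A gap over Dixon's 95% critical value was used as a description. Likeness was Pearson's r of log2(CPM + 1). The counting of gaps and the dispersion fit were tested on simulated data.

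The members, gene lists and motifs were chosen with earlier results of these data known. Genes named are the members, list genes that reach 10 CPM or define a lineage or gate, and the 10 most like each sum. Others (such as Msr1 or Serping1), Lyz1 and Hmgxb3 were named after their values were seen. Alternatives were TMM-scaled CPM, DESeq2 size factors, CPM without the 10 most abundant genes, TPM with union exon lengths, other filters, pseudocounts and gene choices, and each tumor left out. Software was R 4.3.3, edgeR 4.0.16, DESeq2 1.42.0 and Python 3.11.15. The values of 1 gene of the macrophage list are not reported here.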

Additional observations from a re-analysis of the deposited data

Results flagged for a closer look

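In 12 of 28 series of 6 values, the distance from the highest or lowest tumor to its neighbor, as a share of the range, was over Dixon's 95% critical value. For normally distributed values chance passes about 1 in 20, or 1.4 of 28. Genes here passed more often: of the 10416 that passed the filter, 1251 were over the value with tumor 1 high alone. The number 1.4 is therefore no yardstick for the 12. The series overlap, and the members had been chosen for this pattern. Tumor 3 was the high one in 10 of the 12. The gap was 0.852 for Lyz2, 0.748 for C1qa, 0.699 for C1qb, 0.894 for C1qc, 0.811 for Csf1r, 0.834 for H2-Aa and 0.708 for H2-Ab1. For the summed macrophage members it was 0.831, for the summed class II members 0.755 and for the erythroid genes 0.926. The other 2 concern other tumors. The sum of the monocyte genes was highest in tumor 5 (a gap of 0.917), where Fn1, which fibroblasts and epithelial cells also make, was at 666 CPM against 6.38 to 61.1 CPM in the others. The sum of the mast cell genes was lowest in tumor 1 (a gap of 0.676) and came almost wholly from Kit, which was at 64.3 CPM there and at 111 to 133 CPM in the others, while Cpa3, Mcpt4 and Fcer1a had at most 1 count.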

How the results depend on the processing

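Tumor 3 had the highest CPM for 9 of the 10 members with TMM-scaled CPM and DESeq2 size factors, and for 10 when the 10 most abundant genes were left out of the CPM or tumor 1 was left out. With each tumor but tumor 3 left out in turn the number lay between 9 and 10, and the number of members with a gap over the critical value was 7 with TMM-scaled CPM, with DESeq2 size factors and without the 10 most abundant genes. The macrophage sum in tumor 3 was 432 in TPM, and the median class II share was 43.9% without Lyz2. Genes highest in tumor 3 numbered 3903 without a filter on low counts. Those with a gap over the critical value numbered 73 in CPM, 44 with TMM, 40 with DESeq2 size factors and 771 without a filter. With a mean of at least 1 CPM in place of 5, 3 of the 10 genes most like the macrophage members and 2 of those most like the class II members remained.

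With 1 tumor left out, the ratio of tumor 3 to the median of the others was 6.09 to 8.22 for the macrophage sum and 5.25 to 8.69 for the class II sum. The median of the macrophage sum was 37.3 to 38.3 CPM, that of the class II sum 15.4 to 22.1 CPM, that of the class II share 29.9 to 31.8% and that of the coefficient of variation of the members that passed the filter 0.479 to 0.765. These were Lyz2 and Cd68, joined by H2-Aa and H2-Ab1 without tumor 2. The cause of these moves was not tested, other than that fewer or more genes enter without a filter. Of 116 alternative values 17 moved by more than the spread used, and none of the 116 reversed. For the class II share these values cover the median alone, not the order of the tumors. That order did depend on Lyz2, without which tumor 3 was not below tumor 1. Depth limits genes such as H2-Eb1, C1qc, Ciita, Tyrobp, Adgre1 and Ptprc, with under 10 counts in most tumors. No paired analysis was possible because the labels give 1 group.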
